A study of Mus musculus with 11 samples.

Results

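The MHC class II antigen presentation genes described here are the 7 genes H2-Aa, H2-Ab1, H2-Eb1, H2-DMa, H2-DMb1, Cd74 and Ciita, taken by gene symbol out of 38406 genes in the deposited table and followed across mouse medulloblastoma, a tumour of the cerebellum. RNA of 11 fresh frozen cerebellar tumours from CD1 mice was sequenced from its 3′ ends. In the N1ICD tumours (n = 3), Math1-positive cells, a class that includes the granule neuron progenitors, expressed N1ICD, the intracellular part of the receptor Notch1, together with MYC and Gfi1. In the S100b-cell tumours (n = 3), MYC and Gfi1 were expressed without N1ICD in cells positive for S100b, a marker of glia. The MYC/Otx2 tumours (n = 3) and the MYC/Gfi1 tumours (n = 2) expressed their pair of genes constitutively and are earlier models of Group 3 medulloblastoma. All 4 groups carried MYC, all but the MYC/Otx2 group carried Gfi1, and no untreated cerebellum was analysed here. The labels give neither the age of the mice nor the promoters, nor whether each library of a group was a separate animal, so p-values measure the spread between libraries, which may be partly technical.

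MHC class II molecules carry peptides from taken-up proteins to the surface of antigen-presenting cells, where CD4 T cells read them. Each is a pair of an α and a β chain. In the mouse H2-Aa and H2-Ab1 encode the pair called I-A, and H2-Eb1 encodes the β chain of the pair called I-E. Cd74, the invariant chain, blocks the peptide groove and guides new molecules to the endosome, where H2-DMa and H2-DMb1 form the editor that exchanges the last fragment of Cd74 for peptides. Ciita is the transactivator of these genes. It binds no DNA itself but joins RFX, CREB and NF-Y factors on the so-called X and Y boxes of their promoters, and interferon gamma induces it. In brain tissue class II is known from dendritic cells, B cells and activated microglia and macrophages, whereas most other brain cells carry little of it.

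The 5 H2 genes lie within 197.1 kb of mouse chromosome 17, from 34119541 to 34316674 of GRCm38 (GENCODE M21), the build also named mm10. Ciita lies on chromosome 16 from 10480059 to 10528418. On the opposite strand Ciita overlaps Dexi, H2-DMa overlaps Brd2 and H2-Eb1 overlaps the antisense gene Gm20513. The labels do not give the strand setting of the counting. The 3′ end of Ciita lies within Dexi, so reads of that pair cannot be told apart without it. The overlaps of H2-DMa with Brd2 and of H2-Eb1 with Gm20513 lie at their 5′ ends, away from the ends that were sequenced. Inside H2-DMa, which ends at 34139101, the opposite strand also holds CR974462.4 (34127920 to 34129410) and Gm20493 (34132978 to 34133614). Mir5107 overlaps Cd74 on the same strand from 60812076 to 60812163, near the end of Cd74 at 60812652. Promoter sequences from RefSeq (GRCm38.p6) matched 4 of the 7 members, and H2-Ab1, Cd74 and Ciita had no entry. The following stretches are shown because they hold the X and Y box letters through which the class II genes are known to be switched on together. Capitals mark GATTGG (Y box letters) or its reverse complement, GNAAC and ATGATG with any 2 bases between them (X box letters) and TGACGTCA (a palindromic form of the X2 box). The H2-Aa stretch is chr17:34287824-34287973 on the minus strand, the H2-Eb1 stretch is chr17:34305717-34305866 on the plus strand, and the H2-DMb1 stretch, limited to its X box, is chr17:34153089-34153118 on the plus strand.
H2-Aa: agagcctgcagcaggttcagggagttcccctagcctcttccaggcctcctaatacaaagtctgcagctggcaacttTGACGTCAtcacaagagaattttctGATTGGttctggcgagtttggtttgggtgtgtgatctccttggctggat
H2-Eb1: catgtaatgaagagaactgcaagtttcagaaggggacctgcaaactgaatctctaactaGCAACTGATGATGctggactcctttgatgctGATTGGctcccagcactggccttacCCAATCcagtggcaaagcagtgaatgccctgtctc
H2-DMb1: tttacctaGTAACTGATGATGctaggctga

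In H2-Eb1 the X box letters lay 91 to 79 bases before the annotated start and GATTGG 60 to 55 bases before it, with a second copy on the other strand 35 to 30 bases before it. In H2-DMb1 the X box letters lay 94 to 82 bases before the start and GATTGG 62 to 57 bases before it. H2-Aa held the palindromic letters 74 to 67 bases before the start and GATTGG 49 to 44 bases before it. These 3 windows thus had an X match followed by a Y match in the same order and at near spacing. H2-DMa had only GATTGG, 199 to 194 bases before the start of 1 of its 2 windows. Over 32851 mouse promoter windows of 250 bases, both strands searched, GATTGG was found in 14.6%, the X box letters in 0.0487% (16 windows) and TGACGTCA in 1.55%. A window with GATTGG and either X form was found in 0.292%. The letters were chosen after these windows had been read, so the shares describe them and test nothing, and a match is not shown to be a bound site.

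Library depth was 2.58 to 3.38 M counts in N1ICD, 12.77 to 15.19 M in S100b-cell, 6.97 to 8.33 M in MYC/Otx2 and 6.53 to 7.53 M in MYC/Gfi1 libraries. Mitochondrially encoded genes took 23.2 to 27.6% of counts in N1ICD, 14.7 to 18.5% in S100b-cell, 5.18 to 5.74% in MYC/Otx2 and 5.96 to 6.00% in MYC/Gfi1 libraries, and their part in the results was not tested beyond leaving them out of the scaling. Library names follow 3 styles, and only MYC/Otx2 and MYC/Gfi1 share one, so for the other pairs the library set and the tumour model cannot be told apart. All 10 cerebellar and tumour tissue markers, among them Zic1, Pax6 and Mki67, had counts in each group, though not evenly between libraries. S100b-cell replicate 1 had 2.52 CPM (counts per 1000000 of the scaled library total) of Zic1 and 0.259 CPM of Pax6. Replicate 2 of that group had 123 and 28.2 CPM, and replicate 3 had 39.1 and 2.27 CPM. Mki67 went the other way, with 167 CPM in replicate 1 against 102 and 97.7 CPM in replicates 2 and 3. MYC/Gfi1 replicate 2 stood apart from replicate 1. Its mature granule cell markers summed to 3044 CPM, against 94.2 CPM in replicate 1 and 3.49 to 282 CPM in the other groups, and Zic1 had 1626 CPM, against 22.8 CPM in replicate 1. Its 6 astroglial markers summed to 1231 CPM, against 191 CPM in replicate 1, 51.2 to 1787 CPM in N1ICD, 34.8 to 210.3 CPM in S100b-cell and 67.4 to 200.7 CPM in MYC/Otx2 libraries. The part of these differences in the results was not tested, and results with MYC/Gfi1 are also given without MYC/Gfi1 replicate 2. Of all genes, 15228 passed the low-count filter of edgeR and were tested, with all 7 members among them. Ciita passed on its counts in 2 S100b-cell libraries and 1 MYC/Gfi1 library, the libraries in which it was highest. In bulk tumours, fewer cells of a type and less RNA per cell cannot be told apart.

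The class II genes formed a common pattern. All 7 had their highest mean in the S100b-cell tumours and their second highest in the MYC/Gfi1 tumours, and were low in most N1ICD and MYC/Otx2 libraries. Their summed level was 21.9, 155 and 8.93 CPM in the N1ICD libraries, 729.7, 854 and 778 CPM in the S100b-cell libraries, 152, 14.4 and 8.55 CPM in the MYC/Otx2 libraries, and 413 and 371 CPM in the MYC/Gfi1 libraries. Replicate 2 of N1ICD and replicate 1 of MYC/Otx2 stood well above the other libraries of their own groups. Even so, the lowest MYC/Gfi1 library stood above every N1ICD and MYC/Otx2 library, and the lowest S100b-cell library above every MYC/Gfi1 library. CPM counts 3′ ends and is not a level per length, so it is compared between libraries for 1 gene and not between genes, and a sum leans on the genes with most counts.

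**Figure D1:**
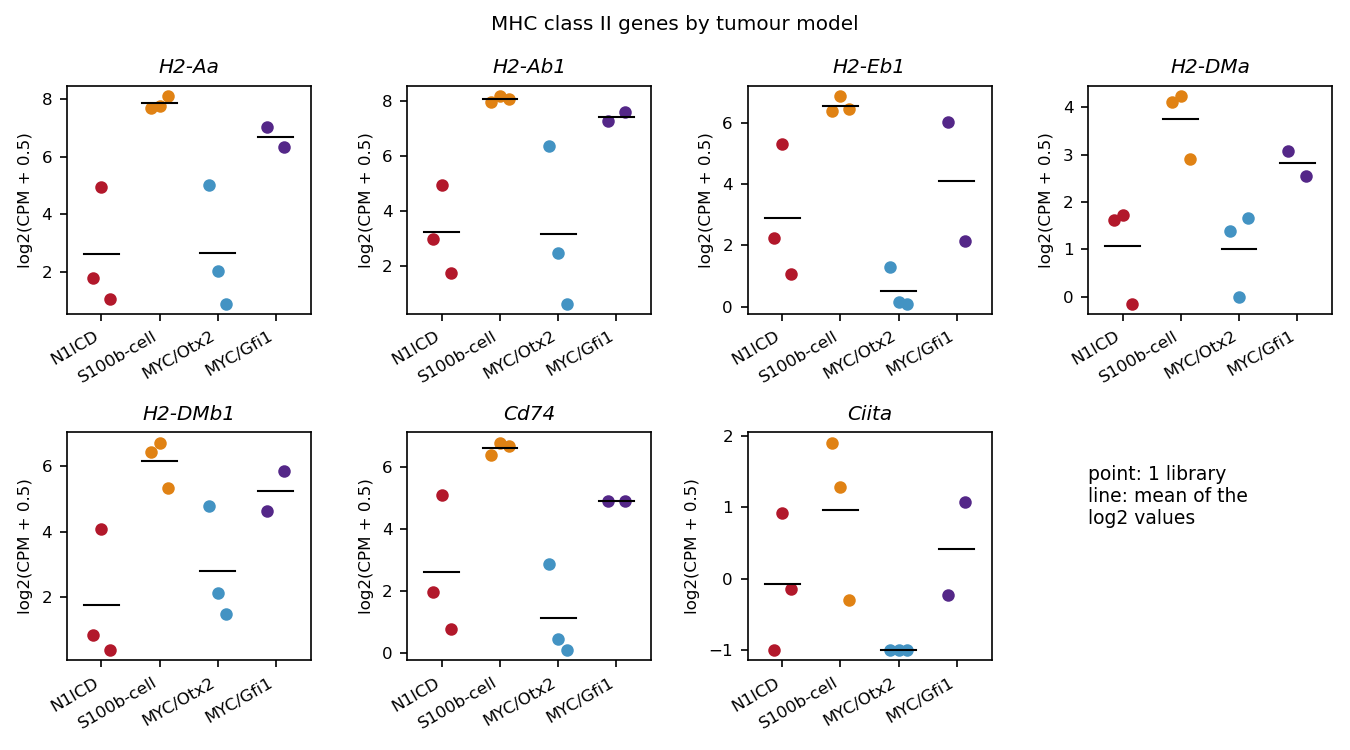
CPM of each of the 7 class II genes by tumour model, on a log2(CPM + 0.5) axis; each point is 1 library and each line the mean of the log2 values of a group. The S100b-cell points of H2-Aa, H2-Ab1, H2-Eb1 and Cd74 lie together at the top, and 1 N1ICD and 1 MYC/Otx2 library stand above their groups in most panels.

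Both I-A chains showed this order. H2-Aa, the α chain, had 3.00, 30.7 and 1.62 CPM in N1ICD, 207, 216 and 272 CPM in S100b-cell, 31.8, 3.61 and 1.39 CPM in MYC/Otx2, and 129 and 80.9 CPM in MYC/Gfi1 libraries. Its partner H2-Ab1, the β chain, had 7.29, 30.7 and 2.84 CPM in N1ICD, 250.1, 289.8 and 273 CPM in S100b-cell, 82.8, 4.98 and 1.04 CPM in MYC/Otx2, and 156 and 193 CPM in MYC/Gfi1 libraries. For both chains the S100b-cell libraries lay above the MYC/Gfi1 libraries and these above all others, while N1ICD and MYC/Otx2 overlapped. The replicates of S100b-cell spanned 1.31-fold for H2-Aa and 1.16-fold for H2-Ab1, whereas those of N1ICD spanned 18.9-fold and 10.8-fold and those of MYC/Otx2 22.9-fold and 79.6-fold.

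H2-Eb1, the I-E β chain, had 4.29, 39.4 and 1.62 CPM in N1ICD, 83.4, 116 and 86.3 CPM in S100b-cell, 1.98, 0.623 and 0.578 CPM in MYC/Otx2, and 65.4 and 3.92 CPM in MYC/Gfi1 libraries. It was the H2 gene in which the MYC/Gfi1 pair differed most, by 16.7-fold, although both libraries had near levels of H2-Ab1. In MYC/Otx2 replicate 1, where H2-Ab1 stood at 82.8 CPM, H2-Eb1 stood at 1.98 CPM. Every S100b-cell library lay above every library of the other groups.

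Cd74, the invariant chain and the member on chromosome 18, had 3.43, 33.5 and 1.22 CPM in N1ICD, 83.2, 109 and 100.5 CPM in S100b-cell, 6.78, 0.872 and 0.578 CPM in MYC/Otx2, and 29.5 and 29.3 CPM in MYC/Gfi1 libraries. The S100b-cell libraries were again above all others. N1ICD replicate 2 lay above both MYC/Gfi1 libraries, so those groups overlapped.

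The peptide editor genes were less even. H2-DMa had 2.57, 2.79 and 0.406 CPM in N1ICD, 16.8, 18.3 and 6.96 CPM in S100b-cell, 2.12, 0.498 and 2.66 CPM in MYC/Otx2, and 7.93 and 5.37 CPM in MYC/Gfi1 libraries. Its partner H2-DMb1 had 1.29, 16.4 and 0.812 CPM in N1ICD, 85.8, 104 and 39.8 CPM in S100b-cell, 27.0, 3.86 and 2.31 CPM in MYC/Otx2, and 24.2 and 56.8 CPM in MYC/Gfi1 libraries. In both genes S100b-cell replicate 3 was the lowest of its group and lay within the range of MYC/Gfi1, and N1ICD replicate 2 was well above its group only for H2-DMb1.

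Ciita, the transactivator, had few counts. They were 0, 4 and 1 in N1ICD, 50, 28 and 4 in S100b-cell, 0, 0 and 0 in MYC/Otx2, and 3 and 11 in MYC/Gfi1 libraries. In CPM this is 0, 1.39 and 0.406 in N1ICD, 3.24, 1.94 and 0.313 in S100b-cell, 0 in all MYC/Otx2, and 0.350 and 1.60 in MYC/Gfi1 libraries. Its absence of counts in MYC/Otx2 allows up to 0.424, 0.374 and 0.347 CPM in the libraries, taking 3 counts as the limit and covering counting error only. S100b-cell replicate 3, the lowest of its group for Ciita, was also the lowest of its group for H2-DMa and H2-DMb1 and the highest for H2-Aa.

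The S100b-cell tumours were set against MYC/Otx2 tumours, which differ from them both in the partner of MYC and in the cells that express it. All 7 genes were higher, each with no overlap between the libraries, and 5 of 7 passed the test at an adjusted p of 0.05. Over all genes tested, 17.9% were called in this comparison, 10% were called higher, and 28.6% lay higher with no overlap. The median log2 fold change of the 7 members was 4.24, beside 0.17 over all genes tested. H2-Eb1 averaged 95.2 ± 18.0 CPM in S100b-cell and 1.06 ± 0.796 CPM in MYC/Otx2 tumours (SD, n = 3 each), a log2 fold change of 6.49 ± 1.39 (SE, adjusted p = 0.0138, edgeR quasi-likelihood test with Benjamini-Hochberg adjustment over all genes tested). Cd74 averaged 97.4 ± 12.99 CPM in S100b-cell and 2.74 ± 3.50 CPM in MYC/Otx2 tumours (log2 fold change 5.16 ± 1.22, edgeR adjusted p = 0.0202). H2-DMa averaged 14.0 ± 6.15 CPM in S100b-cell and 1.76 ± 1.12 CPM in MYC/Otx2 tumours, and rose by 2.98 ± 0.76 on the log2 scale (edgeR adjusted p = 0.0259). H2-Aa averaged 231 ± 35.05 CPM in S100b-cell and 12.3 ± 16.9 CPM in MYC/Otx2 tumours, and rose by 4.24 ± 1.23 (edgeR adjusted p = 0.0403). Ciita was at least 15.2-fold higher in S100b-cell tumours, taking 3 counts over the MYC/Otx2 group as the limit (edgeR adjusted p = 0.0377). Ciita passed the low-count filter mainly through S100b-cell libraries, where it is high, so its call is tied to that filter.

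The remaining pair did not pass. H2-Ab1 averaged 271 ± 19.9 CPM in S100b-cell and 29.6 ± 46.1 CPM in MYC/Otx2 tumours, a log2 fold change of 3.20 ± 1.28 (edgeR adjusted p = 0.107). H2-DMb1 averaged 76.4 ± 33.0 CPM in S100b-cell and 11.1 ± 13.8 CPM in MYC/Otx2 tumours, a log2 fold change of 2.79 ± 1.12 (edgeR adjusted p = 0.108). These are the genes in which MYC/Otx2 replicate 1 came nearest to the S100b-cell libraries. Without that library the log2 fold changes were 6.49 for H2-Ab1, 4.63 for H2-DMb1, 6.53 for H2-Aa and 7.05 for Cd74, and 4 of 7 genes passed, H2-Ab1 now among them and H2-DMa and Ciita no longer. The number of genes that passed was 0 without MYC/Otx2 replicate 2 or without replicate 3, and 2 without any 1 of the S100b-cell libraries. The direction was higher in each of the 7 genes under all alternatives run that gave an adjusted p. These were 19 for H2-Aa and H2-Ab1, which DESeq2 gave no adjusted p, and 20 for the others.

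**Figure D2:**
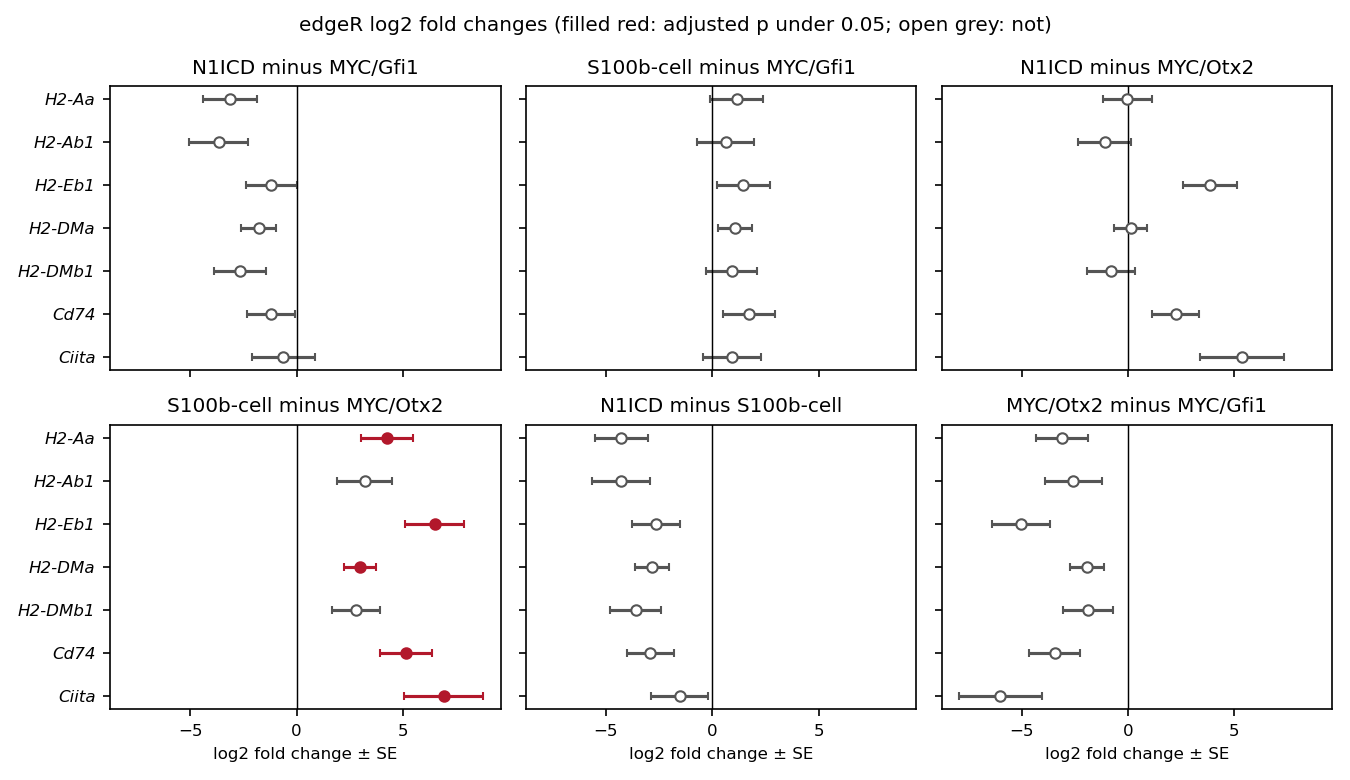
edgeR log2 fold changes of the 7 class II genes in the 6 comparisons, with bars of ± 1 SE; filled red points have an adjusted p under 0.05 and open grey points do not. The 5 filled points all stand in the panel of S100b-cell minus MYC/Otx2, and the Ciita values against MYC/Otx2 rest on a prior count because that group had 0 counts.

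The N1ICD tumours were set against the S100b-cell tumours, so that N1ICD and the Math1-positive origin changed together. The 6 comparisons share libraries and are not independent of each other. All 7 genes had lower means, and 6 of 7, all but Ciita, lay lower with no overlap between libraries, beside 15.1% of all genes tested. No member passed the edgeR test, in which 1.21% of all genes were called and 0.407% called lower. At an unadjusted p of 0.05, 6 members would pass, DESeq2 called 2 and limma-voom called 0. In each comparison DESeq2 gave H2-Aa and H2-Ab1 no adjusted p. H2-Aa averaged 11.8 ± 16.4 CPM in N1ICD and 231 ± 35.05 CPM in S100b-cell tumours, a log2 fold change of -4.27 ± 1.25 (edgeR adjusted p = 0.121). H2-Ab1 averaged 13.6 ± 15.0 CPM in N1ICD and 271 ± 19.9 CPM in S100b-cell tumours, with -4.30 ± 1.37 (edgeR adjusted p = 0.141). The other members ran from -1.53 ± 1.33 for Ciita to -3.60 ± 1.19 for H2-DMb1, and the member median was -2.92 beside -0.06 over all genes. Without N1ICD replicate 2 the values of H2-Eb1, H2-DMb1 and Cd74 were -5.01, -6.17 and -5.39, against -2.64, -3.60 and -2.92 with it, and still 0 members passed.

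Between the constitutive models, whose libraries share a naming style, MYC/Otx2 tumours had lower means than MYC/Gfi1 tumours in all 7 genes. No overlap was seen in 6 of 7, all but H2-DMb1, beside 23.6% of all genes tested. The member median was a log2 fold change of -3.10 beside -0.14 over all genes. No member passed the edgeR test, in which 5.46% of all genes were called and 3.03% called lower. At an unadjusted p of 0.05, 5 members would pass, and DESeq2 and limma-voom called 3 each. H2-Eb1 averaged 1.06 ± 0.796 CPM in MYC/Otx2 (SD, n = 3) and 34.7 ± 43.5 CPM in MYC/Gfi1 tumours (SD, n = 2), with a log2 fold change of -5.04 ± 1.36 (edgeR adjusted p = 0.0575). That value was -1.90 without MYC/Gfi1 replicate 1 and -5.96 without replicate 2, and 0 members passed with either library left out. Cd74 averaged 2.74 ± 3.50 CPM in MYC/Otx2 and 29.4 ± 0.108 CPM in MYC/Gfi1 tumours, with -3.44 ± 1.19 (edgeR adjusted p = 0.106). Ciita was at least 7.17-fold lower in MYC/Otx2 tumours. Leaving out N1ICD replicate 2, which enters through the shared spread, brought H2-Eb1 and Cd74 past the threshold.

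The comparisons with constitutive MYC/Gfi1 that share its 2 libraries gave no called member. S100b-cell tumours, which carry the same genes in S100b-positive cells, had higher means than MYC/Gfi1 tumours in all 7 genes, with no overlap in H2-Aa, H2-Ab1, H2-Eb1 and Cd74, which is 4 of 7 beside 22.4% of all genes. The member median was a log2 fold change of 1.07 beside 0.01 over all genes, and 4.35% of all genes were called, 2.34% as higher. Values ran from 0.63 ± 1.33 for H2-Ab1 to 1.73 ± 1.20 for Cd74 (edgeR adjusted p = 0.418). No member had an unadjusted p under 0.05, DESeq2 called 0, and limma-voom called 1, which was Cd74. N1ICD tumours had lower means than MYC/Gfi1 tumours in all 7 genes, with no overlap in H2-Aa, H2-Ab1, H2-DMa and H2-DMb1, which is 4 of 7 beside 19.8% of all genes. The median was -1.78 beside -0.01 over all genes, and 11.5% of all genes were called, 6.05% as lower. H2-Ab1 had a log2 fold change of -3.67 ± 1.39 (edgeR adjusted p = 0.109), 2 members had an unadjusted p under 0.05, and DESeq2 and limma-voom called 0. In both comparisons 0 members passed without MYC/Gfi1 replicate 1 or without replicate 2. Without MYC/Gfi1 replicate 2, 852 genes of the whole table were called in N1ICD minus MYC/Gfi1 and 64 in S100b-cell minus MYC/Gfi1, against 1754 and 663 with it. Without S100b-cell replicate 1, 12 genes were called in S100b-cell minus MYC/Gfi1.

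N1ICD and MYC/Otx2 tumours, the groups with low class II levels, overlapped in all 7 genes, beside 20.7% of all genes that lay higher and 20.8% that lay lower with no overlap. Values had both signs, 4 positive and 3 negative, and 0 members passed the edgeR test in a comparison in which 21.8% of all genes were called. At an unadjusted p of 0.05, 2 members would pass, DESeq2 called 1 and limma-voom 0. H2-Eb1 stood nearest to the threshold, with 15.1 ± 21.1 CPM in N1ICD and 1.06 ± 0.796 CPM in MYC/Otx2 tumours (log2 fold change 3.85 ± 1.28, edgeR adjusted p = 0.0558). Without N1ICD replicate 2 it was 1.49, and Cd74, at 2.24 with that library, was -0.22 without it. Without MYC/Otx2 replicate 1 the H2-Aa value was 2.25, against -0.03 with it.

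The balance of I-E and I-A β chains within a library was compared after the values had been seen. H2-Eb1 made up 25.0, 28.6 and 24.0% of the H2-Eb1 and H2-Ab1 counts in the S100b-cell libraries and 29.5% in MYC/Gfi1 replicate 1 (exact 95% binomial interval 27.5 to 31.6%). In MYC/Gfi1 replicate 2 it made up 1.99%, 27 of 1358 counts (1.31 to 2.88%), and in MYC/Otx2 replicate 1 it made up 2.33%, 14 of 600 counts (1.28 to 3.88%). N1ICD replicate 2 stood at the other end with 56.2% (49.1 to 63.2%). The other N1ICD and MYC/Otx2 libraries had 11 to 45 counts of the pair and wide intervals, from 10.9 to 69.2% in N1ICD replicate 3. H2-Aa as a share of H2-Aa and H2-Ab1 was 42.7 to 49.9% in S100b-cell libraries and 45.2% in MYC/Gfi1 replicate 1. It was 29.5% in MYC/Gfi1 replicate 2 and 27.7% in MYC/Otx2 replicate 1, whereas MYC/Otx2 replicate 2 had 42.0% (30.2 to 54.5%) and MYC/Otx2 replicate 3 had 57.1% (34.0 to 78.2%). Cd74 as a share of Cd74 and H2-Ab1 was 52.2% in N1ICD replicate 2, 25.0, 27.3 and 26.9% in S100b-cell libraries, 7.57% in MYC/Otx2 replicate 1 (5.63 to 9.91%), and 15.9 and 13.2% in the MYC/Gfi1 libraries. CD1 is an outbred stock and class II genes differ much between alleles, and any effect of this on the mapping of reads was not tested.

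**Figure D3:**
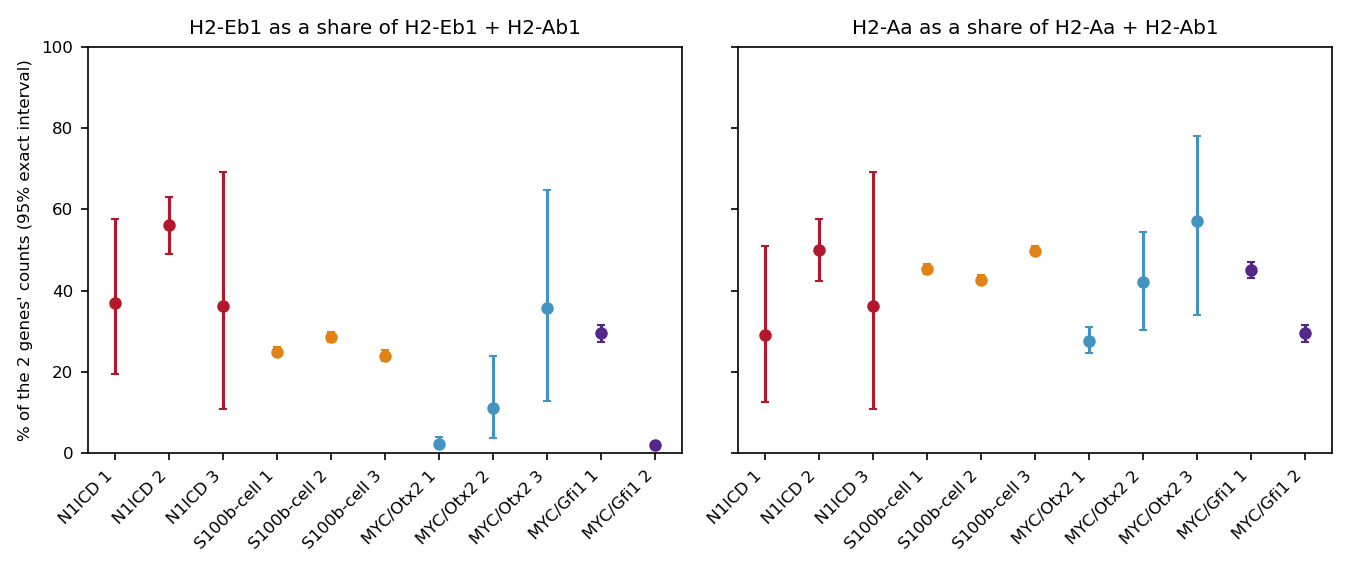
Share of H2-Eb1 in the counts of H2-Eb1 and H2-Ab1 (left) and of H2-Aa in the counts of H2-Aa and H2-Ab1 (right), in percent, for each library with exact 95% binomial intervals that cover counting error only. In the left panel MYC/Otx2 replicate 1 and MYC/Gfi1 replicate 2 lie at 2.33 and 1.99%, far under the S100b-cell libraries.

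Of the other class II chains and antigen processing genes, 13 of 16 listed were in the table and 11 were tested. Between S100b-cell and MYC/Otx2 tumours, in which 17.9% of all genes tested were called, 3 rose and 1 fell. H2-Ea-ps, the I-E α chain locus that is annotated as a pseudogene in the reference strain, was at least 46.0-fold higher in S100b-cell tumours (edgeR adjusted p = 0.00648), and H2-DMb2, a second β chain gene of the editor, averaged 8.11 ± 9.45 CPM in S100b-cell and 0.116 ± 0.200 CPM in MYC/Otx2 tumours (log2 fold change 5.89 ± 1.47, edgeR adjusted p = 0.0240). H2-Ea-ps passed the low-count filter only through the S100b-cell libraries, where it is high, so its call is tied to that filter. H2-DMb2 passed through the S100b-cell libraries, with 35, 275 and 39 counts, and MYC/Gfi1 replicate 1, with 27 counts. Its call is therefore tied to that filter too. Because H2-DMb1 and H2-DMb2 are close copies, reads may have been split between them. The proteases that cut Cd74 went opposite ways. Ctss, which encodes cathepsin S of antigen-presenting cells, averaged 493 ± 47.4 CPM in S100b-cell and 103 ± 77.9 CPM in MYC/Otx2 tumours (2.26 ± 0.52, edgeR adjusted p = 0.0183). Ctsl, which encodes cathepsin L, known for this step in thymic epithelium, averaged 140.3 ± 72.0 CPM in S100b-cell and 1123 ± 232 CPM in MYC/Otx2 tumours (-3.00 ± 0.42, edgeR adjusted p = 0.00235). Ctsl was also higher in MYC/Otx2 tumours, at 1123 ± 232 CPM, than in MYC/Gfi1 tumours, at 148 ± 36.2 CPM (2.92 ± 0.49, edgeR adjusted p = 0.0161).

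The 8 listed class II transcription factor genes were those of RFX, CREB and NF-Y, which Ciita joins on the X and Y boxes, and Ctcf. Ctcf is not among the factors joined there. The 8 genes summed to 358 to 367 CPM in N1ICD, 314 to 436 CPM in S100b-cell, 415 to 444 CPM in MYC/Otx2 and 374 to 404 CPM in MYC/Gfi1 libraries. The sum was carried by Ctcf, Creb1 and Nfyb, so it is no measure of the X and Y box factors alone. Ctcf averaged 163 CPM in N1ICD, 127 CPM in S100b-cell, 122 CPM in MYC/Otx2 and 122 CPM in MYC/Gfi1 tumours. Rfxap, a subunit of the RFX factor, was the only one of the 8 that edgeR called between S100b-cell and MYC/Otx2 tumours, beside 17.9% of all genes tested. It averaged 11.6 ± 0.363 CPM in S100b-cell and 4.85 ± 1.22 CPM in MYC/Otx2 tumours (log2 fold change 1.25 ± 0.35, edgeR adjusted p = 0.0345). It was also lower in MYC/Otx2 than in MYC/Gfi1 tumours (-2.01 ± 0.38, edgeR adjusted p = 0.0222). Creb1, which encodes an X2 box factor, was lower in N1ICD tumours, at 95.6 ± 4.56 CPM, than in MYC/Otx2 tumours, at 159 ± 10.7 CPM (-0.74 ± 0.18, edgeR adjusted p = 0.0180). Rfx5, the large RFX subunit, was not called, with 1.75 ± 0.718 CPM in S100b-cell and 3.45 ± 0.608 CPM in MYC/Otx2 tumours, and it had 1.03 ± 0.0229 CPM in MYC/Gfi1 tumours (SD, n = 2). None of the 8 had 0 counts throughout a group.

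The 12 genes of the interferon gamma pathway, the known inducer of Ciita, gave 0 edgeR calls in all 6 comparisons. Over all genes tested, the share called ran from 1.21% in N1ICD minus S100b-cell to 21.8% in N1ICD minus MYC/Otx2, so 0 of 12 says little where that share is small. Between S100b-cell and MYC/Otx2 tumours 4 of 12 had an unadjusted p under 0.05, DESeq2 called 2 and limma-voom 1, and the median log2 fold change was 1.43. Their summed level was 107, 1527 and 109 CPM in N1ICD, 1028, 522 and 214 CPM in S100b-cell, 214, 180.5 and 176 CPM in MYC/Otx2, and 216 and 330 CPM in MYC/Gfi1 libraries. N1ICD replicate 2 was the highest of all libraries. Cxcl9, an interferon-induced chemokine, had 0.857, 493 and 0.812 CPM in N1ICD and 472, 105 and 32.8 CPM in S100b-cell libraries, against 14.7, 1.74 and 0.231 CPM in MYC/Otx2 and 22.7 and 37.2 CPM in MYC/Gfi1 libraries. Within N1ICD, replicate 2 was the highest library in both the interferon sum and the class II sum, and within MYC/Otx2, replicate 1 was the highest in both. The other groups did not show this. Within S100b-cell the interferon sum spanned 214 to 1028 CPM while the class II sum spanned 729.7 to 854 CPM. There replicate 1 had the highest interferon sum and the lowest class II sum. Within MYC/Gfi1, replicate 2 had the higher interferon sum, and replicate 1 the higher class II sum, at 413 against 371 CPM.

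Of the 12 genes of class I presentation, the pathway read by CD8 T cells, 2 rose and 0 fell between S100b-cell and MYC/Otx2 tumours by edgeR, 10 lay higher with no overlap, beside 17.9% of all genes called and 28.6% higher with no overlap, DESeq2 and limma-voom called 6 each, and the median log2 fold change was 2.49. B2m, the light chain of class I, averaged 1055 ± 335 CPM in S100b-cell and 151 ± 41.7 CPM in MYC/Otx2 tumours (2.81 ± 0.67, edgeR adjusted p = 0.0208), and Tapbp, which loads peptides on class I, averaged 94.0 ± 35.2 CPM in S100b-cell and 13.4 ± 5.56 CPM in MYC/Otx2 tumours (2.81 ± 0.70, edgeR adjusted p = 0.0247). H2-K1, a class I heavy chain, was not called, with 324 ± 52.0 CPM in S100b-cell and 111 ± 88.5 CPM in MYC/Otx2 tumours. Per 100 CPM of class I genes, class II genes had 6.10, 8.88 and 3.31 CPM in N1ICD, 29.8, 40.5 and 51.3 CPM in S100b-cell, 22.7, 4.17 and 3.40 CPM in MYC/Otx2, and 31.4 and 21.6 CPM in MYC/Gfi1 libraries. Of 6 costimulation genes tested, 4 rose in S100b-cell against MYC/Otx2 tumours, beside 10% of all genes called higher. Pdcd1lg2 passed the low-count filter only through the S100b-cell libraries. Cd40 passed it only through the S100b-cell libraries and N1ICD replicate 2, so the calls of Cd40 and Pdcd1lg2 are tied to that filter. Cd40 was at least 33.9-fold and Pdcd1lg2 at least 14.5-fold higher, Cd274, which encodes the checkpoint ligand PD-L1, averaged 15.1 ± 5.12 CPM in S100b-cell and 0.210 ± 0.142 CPM in MYC/Otx2 tumours (6.06 ± 1.35, edgeR adjusted p = 0.0155), and Icosl averaged 10.9 ± 7.42 CPM in S100b-cell and 0.360 ± 0.438 CPM in MYC/Otx2 tumours (4.91 ± 1.16, edgeR adjusted p = 0.0195).

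Among markers of cells that may carry class II, the leukocyte list had its highest sums in the S100b-cell libraries, as the class II genes had. The microglia sums overlapped between S100b-cell and MYC/Gfi1 libraries and were lower in all MYC/Otx2 and N1ICD libraries. The T and NK cell sums of S100b-cell libraries lay above those of MYC/Gfi1 and MYC/Otx2 libraries, but N1ICD replicate 1 was higher through Klrb1c. The summed levels of the dendritic cell, B cell and monocyte lists, given below, did not follow the order of the class II genes. Such a sum can lean on 1 gene, as Lyz2 was 296 of 304 monocyte and granulocyte CPM in MYC/Otx2 replicate 1. Gene by gene, most tested markers were higher in S100b-cell than in MYC/Otx2 tumours. These were 6 of 7 dendritic cell, 3 of 3 B cell and 5 of 6 monocyte and granulocyte markers. Their median log2 fold changes were 1.86, 2.09 and 3.55, beside 0.17 over all genes tested. The part of any of these cells in the results was not tested. The 7 leukocyte markers in the table summed to 42.4, 207 and 78.3 CPM in N1ICD, 384, 312 and 266 CPM in S100b-cell, 179, 110.1 and 53.6 CPM in MYC/Otx2, and 188 and 258 CPM in MYC/Gfi1 libraries, with none at 0 throughout a group. Between S100b-cell and MYC/Otx2 tumours 4 of 7 rose, beside 10% of all genes tested. Ptprc, the pan-leukocyte CD45 gene, averaged 40.1 ± 14.3 CPM in S100b-cell and 4.22 ± 1.62 CPM in MYC/Otx2 tumours (log2 fold change 3.25 ± 0.77, edgeR adjusted p = 0.0203), and Cd52, a surface protein of lymphocytes and monocytes, averaged 53.1 ± 18.0 CPM in S100b-cell and 3.12 ± 1.33 CPM in MYC/Otx2 tumours (4.09 ± 0.87, edgeR adjusted p = 0.0136). Laptm5, another leukocyte gene, was not called, with 76.4 ± 17.9 CPM in S100b-cell and 60.4 ± 42.4 CPM in MYC/Otx2 tumours. Per 100 CPM of leukocyte markers, class II genes had 51.5, 74.7 and 11.4 CPM in N1ICD, 190.2, 274 and 293 CPM in S100b-cell, 85.0, 13.1 and 15.9 CPM in MYC/Otx2, and 219 and 144 CPM in MYC/Gfi1 libraries. In this ratio the S100b-cell and MYC/Gfi1 libraries stood above all others. The leukocyte sum includes Laptm5, at 105, 55.7 and 20.5 CPM in MYC/Otx2 and 56.7, 91.8 and 80.6 CPM in S100b-cell libraries. Laptm5 had 71.3 and 97.2 CPM in MYC/Gfi1 libraries. It lowers the leukocyte ratio more in MYC/Otx2 than in S100b-cell libraries, and ratios to single leukocyte genes were not computed. Per 100 CPM of microglia markers, class II genes had 7.81, 67.2 and 3.71 CPM in N1ICD, 131, 109.7 and 90.4 CPM in S100b-cell, 30.4, 2.96 and 2.86 CPM in MYC/Otx2, and 74.2 and 47.7 CPM in MYC/Gfi1 libraries. There N1ICD replicate 2 lay above MYC/Gfi1 replicate 2, and in the ratio to class I genes MYC/Otx2 replicate 1 lay above MYC/Gfi1 replicate 2. The microglia sum includes Sall1, at 77.6 to 179 CPM in MYC/Otx2 and 0.0647 to 1.49 CPM in S100b-cell libraries. Sall1 had 116 CPM in N1ICD replicate 1. It lowers the microglia ratio most in the MYC/Otx2 libraries and in N1ICD replicate 1. All these ratios were computed after the values had been seen.

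The 13 microglia markers summed to 230.4 to 280 CPM in N1ICD, 557 to 861 CPM in S100b-cell, 299 to 501 CPM in MYC/Otx2 and 556 to 778 CPM in MYC/Gfi1 libraries. Of these sums Sall1 alone made up 77.6, 170 and 179 CPM in MYC/Otx2 libraries and 116 CPM in N1ICD replicate 1. It had 0.0647 to 1.49 CPM in S100b-cell libraries. Of 11 tested between S100b-cell and MYC/Otx2 tumours, 2 were called higher and 1 lower, beside 17.9% of all genes called. C1qa and C1qb, complement genes of microglia and macrophages, rose, with log2 fold changes of 1.64 ± 0.49 (edgeR adjusted p = 0.0450) and 2.19 ± 0.59 (edgeR adjusted p = 0.0324). Sall1, a microglial factor that neural progenitors also express, fell by 7.57 ± 1.74 (edgeR adjusted p = 0.0181). Itgax, the CD11c gene of dendritic cells and activated microglia, averaged 18.8 ± 0.862 CPM in S100b-cell and 4.14 ± 3.64 CPM in MYC/Otx2 tumours (2.19 ± 0.64, edgeR adjusted p = 0.0404). It was the only one of 7 tested dendritic cell markers called, beside the same 17.9% of all genes. The 10 dendritic cell markers in the table summed to 41.0 to 66.0 CPM in N1ICD, 34.2 to 45.2 CPM in S100b-cell, 9.36 to 29.1 CPM in MYC/Otx2 and 39.98 to 109 CPM in MYC/Gfi1 libraries. Zbtb46 alone was 56.6 of the 66.0 CPM in N1ICD replicate 1 and 77.6 of the 109 CPM in MYC/Gfi1 replicate 2. A sum that leans on 1 gene in this way does not give the level of a cell type. The 9 B cell markers summed to 0.812 to 6.97 CPM in N1ICD, 6.47 to 9.54 CPM in S100b-cell, 0.374 to 3.96 CPM in MYC/Otx2 and 9.01 to 10.7 CPM in MYC/Gfi1 libraries. At 0 throughout a group were 3 of the 9 in N1ICD, 0 in S100b-cell, 7 in MYC/Otx2 and 1 in MYC/Gfi1 tumours. The 7 plasma cell markers in the table summed to 17.6 to 23.1 CPM in N1ICD, 19.4 to 88.7 CPM in S100b-cell, 28.0 to 53.1 CPM in MYC/Otx2, and 3535 and 679 CPM in MYC/Gfi1 libraries. In MYC/Otx2 most of that sum was Sdc1, at 24.4 to 43.3 CPM. In MYC/Gfi1 most of it was Igha, at 2873 and 587 CPM. The 9 monocyte and granulocyte markers summed to 60.4 to 198 CPM in N1ICD, 168 to 332 CPM in S100b-cell, 87.8 to 304 CPM in MYC/Otx2 and 98.5 to 345 CPM in MYC/Gfi1 libraries. The 10 T and NK cell markers summed to 2.03 to 28.3 CPM in N1ICD, 16.1 to 25.8 CPM in S100b-cell, 2.24 to 8.33 CPM in MYC/Otx2 and 10.3 to 15.6 CPM in MYC/Gfi1 libraries. Klrb1c alone was 27.0 of the 28.3 CPM in N1ICD replicate 1. The 8 border macrophage markers summed to 10.3 to 62.8 CPM in N1ICD, 33.0 to 46.7 CPM in S100b-cell, 14.8 to 20.2 CPM in MYC/Otx2 and 19.3 to 33.7 CPM in MYC/Gfi1 libraries. N1ICD replicate 2 also had 6455 CPM of endothelial and pericyte markers, against 443 and 2405 CPM in the other N1ICD libraries and 96.6 to 346 CPM elsewhere.

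**Figure D4:**
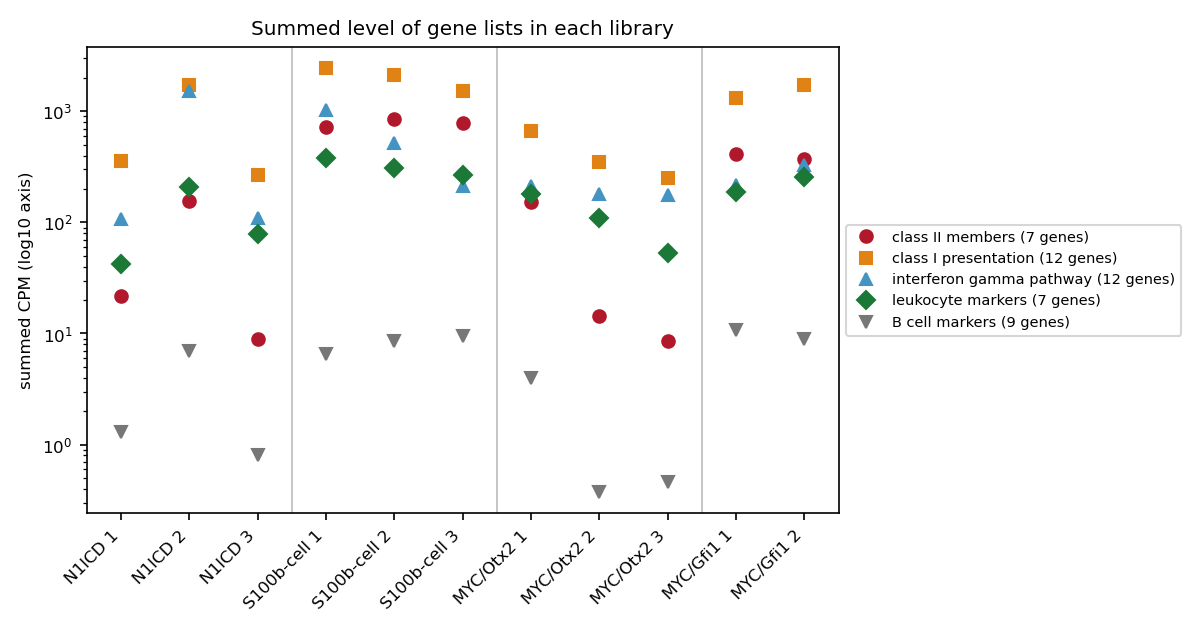
Summed CPM of 5 gene lists in each library on a log10 axis. The class II sum (circles) spans 8.55 to 854 CPM over the libraries, more than the leukocyte markers (diamonds, 42.4 to 384 CPM), and the interferon gamma list (upward triangles) is highest in N1ICD replicate 2.

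The genes whose profile over the 11 libraries was nearest to the mean profile of the members were Cd52, Cybb, Gbp8, Lgals3bp, AI662270, Klra17, Clec4a3, Cd3d, Insl6 and Dnase1l3. Likeness was the root mean square difference of centred log2 CPM, which was 0.69 for Cd52 and 0.83 for Dnase1l3, against a median of 2.24 over the other genes tested. Among the members Cd74 lay nearest to the mean of the others, at 0.67, then H2-Aa at 0.93, H2-DMb1 at 0.93, H2-Ab1 at 1.13, H2-DMa at 1.23, H2-Eb1 at 1.41 and Ciita at 1.65. Cybb, which encodes the oxidase subunit of phagocytes, had 9.43, 91.7 and 6.09 CPM in N1ICD, 151, 107 and 96.9 CPM in S100b-cell, 22.7, 13.1 and 8.44 CPM in MYC/Otx2, and 67.7 and 71.6 CPM in MYC/Gfi1 libraries. Like the members, it had its highest values in the S100b-cell libraries and 1 high N1ICD library. Gbp8, Klra17, Clec4a3, Cd3d, Insl6 and Dnase1l3 had 0 counts in 1 or more libraries, where likeness rests on a prior count.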

How the data were processed

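RNA of cerebellar tumours was profiled by QuantSeq 3′ sequencing (forward kit, with unique molecular identifiers added), per the labels' protocols. The tools named are STAR 2.4.1d and HTSeq 0.6.1 with mm10, per the submitters' processing notes. Whether identifiers were collapsed is not stated in the labels, so intervals and limits cover counting error only. The authors deposited raw counts per gene symbol for 11 libraries, 2.58 to 15.19 M each, and groups follow the sample titles. Libraries of a group differed by 22.6 to 138 chi-square per degree of freedom, beyond sampling noise.

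From these counts, the 15228 genes kept by filterByExpr were scaled by TMM and fitted in 1 edgeR 4.0.16 quasi-likelihood model (R 4.3.3) of the 4 group means. The SE is the log2 fold change over the square root of F, and p-values are two-sided, adjusted over all genes tested and called at 0.05. CPM was taken over scaled totals of the genes tested. A group at 0 was set to 3 counts over the group. DESeq2 1.42.0, limma 3.58.1, other scalings and filters, a replicate block and leaving out each library were alternatives.

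The members and the 18 lists (164 of 169 symbols in the table) were chosen with earlier results of these data known. All members are named, and from each other list up to 4 called genes of smallest p and up to 2 uncalled genes of highest CPM, of which a selection is printed, as are the 10 genes nearest to the members.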

Additional observations from a re-analysis of the deposited data

How the results depend on the processing

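The number of the 7 class II genes called stayed within 1.5 times its value in 47 of 54 counts under other settings and in 55 of 66 counts with a library left out. Between S100b-cell and MYC/Otx2 tumours, where 5 were called, 3 were called without the low-count filter and 3 with the replicate block, and 0 to 5 with a library left out. In comparisons with 0 edgeR calls, limma-voom called 1 (S100b-cell minus MYC/Gfi1) and 3 (MYC/Otx2 minus MYC/Gfi1), and DESeq2 called 1 (N1ICD minus MYC/Otx2), 2 (N1ICD minus S100b-cell) and 3 (MYC/Otx2 minus MYC/Gfi1). Leaving out a library gave 0 to 1 calls in N1ICD minus MYC/Gfi1, 0 to 1 in N1ICD minus MYC/Otx2, 0 to 2 in MYC/Otx2 minus MYC/Gfi1, and 0 in S100b-cell minus MYC/Gfi1 and N1ICD minus S100b-cell. The direction reversed in 15 member values, of which 13 stood in N1ICD minus MYC/Otx2. There limma-voom gave 0.24 for H2-Aa and 0.44 for H2-Ab1, and the replicate block gave 0.27 for H2-Aa and -0.024 for H2-DMa. With a library left out, the values there ran from -2.40 to 2.25 for H2-Aa, -2.55 to 2.19 for H2-Ab1, -0.31 to 0.61 for H2-DMa, -3.38 to 1.02 for H2-DMb1 and -0.22 to 4.12 for Cd74. In N1ICD minus MYC/Gfi1 they ran from -3.56 to 1.96 for H2-Eb1, positive without MYC/Gfi1 replicate 1, and from -2.14 to 0.81 for Ciita, positive without MYC/Gfi1 replicate 2. Except where fewer libraries were fitted, the cause was not tested. Under settings other than leaving out a library, genes called over the whole table ranged from 1904 (replicate block) to 4614 (both groups fitted alone) around 2727 in S100b-cell minus MYC/Otx2, from 0 to 2306 around 663 in S100b-cell minus MYC/Gfi1, from 18 to 3369 around 1754 in N1ICD minus MYC/Gfi1, from 33 to 1360 around 185 in N1ICD minus S100b-cell, from 2213 to 4653 around 3315 in N1ICD minus MYC/Otx2, and from 209 to 2695 around 832 in MYC/Otx2 minus MYC/Gfi1. With a library left out they ranged from 1181 to 3524 in S100b-cell minus MYC/Otx2, 12 to 2026 in S100b-cell minus MYC/Gfi1, 789 to 2289 in N1ICD minus MYC/Gfi1, 9 to 318 in N1ICD minus S100b-cell, 1651 to 4095 in N1ICD minus MYC/Otx2 and 59 to 2196 in MYC/Otx2 minus MYC/Gfi1, and the shares of all genes called move with them. Replicate numbers did not pair the libraries: over 15 pairs the deviations correlated at -0.17 to 0.19, and 3 of 11 libraries correlated best with their own number. The shallow N1ICD libraries limit Ciita and H2-DMa most, since 3 counts are 1.05 to 1.29 CPM there.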

Other observations

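Other genes of the class II region were uneven between libraries of a group, and their values, which were picked after they had been seen, are given without a test unless stated. H2-Ob, which encodes the β chain of the DO modulator of the peptide editor, had 38, 0 and 1 counts in N1ICD, 9, 22 and 14 counts in S100b-cell, 0 counts in all MYC/Otx2, and 24 and 5 counts in MYC/Gfi1 libraries. The 38 counts came from N1ICD replicate 1, a library with only 51 counts of the 7 class II genes together. edgeR called H2-Ob higher in N1ICD than in MYC/Otx2 tumours (adjusted p = 0.0404), although the libraries overlapped. H2-Eb2, a second β chain gene of the I-E type, had 18 and 3 counts in MYC/Gfi1 and 0 counts in every N1ICD, S100b-cell and MYC/Otx2 library, and was not tested.

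Tap2, a subunit of the transporter that brings peptides to class I molecules, lies between H2-DMb1 and H2-Ob on chromosome 17. Its counts were 120, 35 and 1 in N1ICD, 14, 30 and 6 in S100b-cell, 0, 1 and 8 in MYC/Otx2, and 108 and 0 in MYC/Gfi1 libraries. The MYC/Gfi1 library with 0 counts of Tap2, replicate 2, was also the one in which H2-Eb1 made up 1.99% of the β chain counts.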
